A study of Arabidopsis thaliana with 23 samples.

Results

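The CYP71B genes form one of the largest subfamilies of cytochrome P450 genes in Arabidopsis thaliana, and many of them lie in tandem arrays. They were taken here as the coding genes of a RefSeq gene table whose symbol begins with CYP71B and a number, which gave 33 of 27444 coding genes on the nuclear chromosomes. The subfamily was selected on its H3K27me3 coverage in the triple mutant and the wild type and on its REF6-GFP summits in these same data, so the values below describe it, and no test is given. Chromosome 3 carried 21 of the genes, chromosome 5 carried 6, chromosome 1 carried 4 and chromosome 2 carried 2. By a rule that joined members at most 3 places apart in the order of coding genes, 27 members fell into 5 tandem clusters and 6 stood alone. Gene length ranged from 1447 to 2712 bp, with a median of 1925 bp. CYP71B30P counts as a coding gene in the table although the P in its name marks a pseudogene. The 3 genes CYP71B27, CYP71B18 and CYP71B33 are listed there as pseudogenes and were not counted as members. PAD3, which carries the name CYP71B15 only as a synonym, was not counted either.

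Cytochrome P450 enzymes are haem-containing monooxygenases of the endoplasmic reticulum that oxidise small molecules with electrons passed on by P450 reductases. Few CYP71B enzymes have a known substrate. CYP71B15 carries out the last step of camalexin synthesis, CYP71B6 acts on indole-3-acetonitrile, and CYP71B31 oxidises linalool in flowers. H3K27me3, the trimethylation of lysine 27 on histone H3, is laid down by Polycomb complexes over silent genes, mostly along the whole gene body. REF6, ELF6 and JMJ13 are Jumonji-type demethylases that take this mark off, and REF6 reaches its sites in part through zinc fingers that bind DNA.

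Chromatin immunoprecipitation with sequencing was performed on unopened flowers of 5-week-old plants of the Col0 background, grown in long days with 22 °C in daytime and 20 °C in the dark. H3K27me3 was profiled in the triple mutant elf6-3ref6Cjmj13G (2 samples), in which all 3 demethylase genes are mutated per the genotype label, and in the wild type (2 samples). GFP antibody beads were used for REF6-GFP in ref6-3 with DSG (3 samples) and without DSG (3 samples), where DSG is a reagent that crosslinks proteins to each other. REF6-ZnF-GFP was profiled with DSG, per the titles, in the triple mutant as REF6p::REF6-ZnF-GFP elf6-3ref6Cjmj13G (2 samples) and in ref6 (3 samples). In this last group the genotype entry reads REF6p::REF6-GFP ref6-3, and the titles were followed. The REF6 promoter, REF6p, is named for both REF6-ZnF-GFP groups. The REF6 transgenes stood in mutant plants, while the H3K27me3 profiles came from plants for which the labels name no transgene. The other 8 of the 23 samples, histone H3 and input DNA, were not analysed here.

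Each of the 6 deposited lists was called on the pooled samples of its group. Replicate error is therefore absent from every value below, and differences between lists could not be set against a spread of replicates. The lists held 9391 domains for the triple mutant and 7914 for the wild type, and 5393 and 4526 peaks for REF6-GFP with and without DSG. For REF6-ZnF-GFP there were 9327 peaks in the triple mutant and 332 in ref6. Read depth was not used here, although it bears on how many peaks a library yields. Fold enrichment and −log10 q are the authors' own values for each peak or domain and are read only within a list. Tandem P450 genes can be alike in sequence, and the treatment of reads that match several copies is not given in the sources at hand, so a domain or peak at a copy may hold reads of its neighbours. Whole flowers were used, and a mark in more cells cannot be told apart from more of the mark in each cell.

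As the lists were deposited, H3K27me3 covered more of most CYP71B genes in the triple mutant than in the wild type. Domains covered at least 50% of the gene body, here called marked, in 25 of 33 members in the triple mutant and in 12 of 33 in the wild type, where the same was true of 30.9% and 23.7% of all coding genes. The median member was covered over 92.7% of its body in the triple mutant and over 34.0% in the wild type, whereas the median over all coding genes was 0% in both. Coverage was higher in the triple mutant at 19 members, against 20.1% of all coding genes, and lower at 9 members, against 10.7%. The other 5 members had equal values. This majority depended on weak triple mutant domains and did not hold when these needed a −log10 q of at least 10. Then 12 of the 13 members with a REF6-GFP summit with DSG and 3 of the 20 without one were higher. The median difference, triple mutant minus wild type, was 9.89 percentage points over the members and 0 over all coding genes.

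A gene was counted as gained where domains covered at least 50% of it in the triple mutant and less than 10% in the wild type, and as lost in the reverse case. The members split into 10 gained, 11 marked in both genotypes, 2 unmarked in both and 10 intermediate genes, and 0 were lost. The count of lost members depended on the weak triple mutant domains and was 4 when these needed a −log10 q of at least 10. Over all coding genes 6.29% were gained and 0.565% were lost. Only 12 members were covered below 10% in the wild type, and 10 of these 12 were gained, against 8.88% of all genes that low in the wild type. The members nearest to the limit in the triple mutant were CYP71B12 with 59.3% and CYP71B11 with 48.2%. Nearest to the same limit in the wild type were CYP71B30P with 54.8% and CYP71B32 with 49.6%. No member lay between 0% and 19.7%, the value of CYP71B19, in the wild type, so the lower limit there separated members at 0% from the rest.

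**Figure D1:**
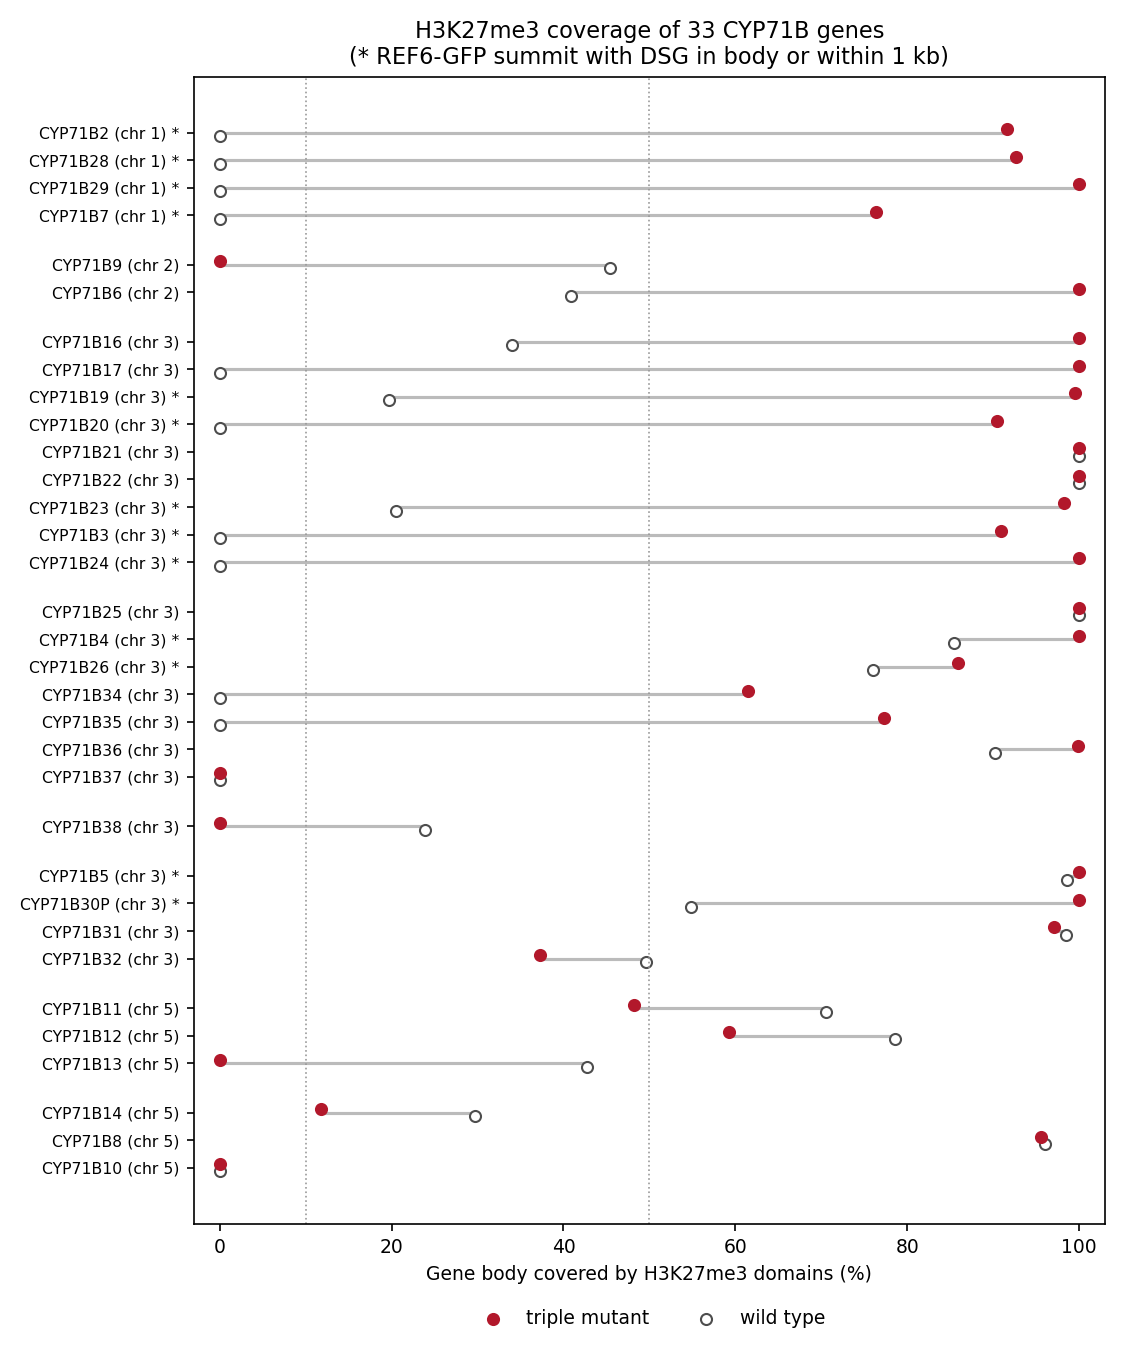
Share of each CYP71B gene body covered by H3K27me3 domains (x axis, percent) in the triple mutant (filled circles) and the wild type (open circles), for all 33 genes in chromosomal order, with gaps between clusters and dotted lines at 10% and 50%. The 4 genes of the chromosome 1 cluster run from 76.4 to 100% in the triple mutant and lie at 0% in the wild type, and the genes of chromosome 5 show no rightward shift in the triple mutant.

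REF6-GFP summits with DSG lay in the body or within 1 kb of 13 members, against 25.1% of all coding genes. Without DSG the count was also 13, against 21.4%, and these were the same 13 genes. Every such gene was on chromosome 1 or 3 and within a tandem cluster. In both lists the 13 genes were reached by 10 distinct summits, of which 10 lay inside a member's body. Neighbouring genes therefore shared summits, and the 13 genes are not 13 separate binding events. All 7 bound members that were below 10% in the wild type were gained, as were 3 of the 5 unbound ones. Over all coding genes below 10% in the wild type, 21.6% of those with a summit and 3.85% of those without were gained. The 7 gained and bound members compare with 4.34% of all coding genes. Of all gained genes 68.9% had a REF6-GFP summit with DSG, which is close to the 70.0% among the gained members.

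The chromosome 1 cluster, CYP71B2, CYP71B28, CYP71B29 and CYP71B7, showed the clearest contrast between genotypes. Domains covered 76.4% of its span of 10.03 kb in the triple mutant and 0% in the wild type, and all 4 genes were gained. CYP71B2 (AT1G13080) was covered over 91.6% of its body in the triple mutant, by a domain at chromosome 1, 4459053 to 4460880 (TAIR10, as are all positions below), and over 0% in the wild type. CYP71B28 (AT1G13090) had 92.7% in the triple mutant and 0% in the wild type. CYP71B29 (AT1G13100) had 100% in the triple mutant and 0% in the wild type, and it shared its domain, 4461864 to 4466220, with CYP71B28. At CYP71B7 (AT1G13110), coverage was 76.4% in the triple mutant, from a domain at 4467306 to 4468787, and 0% in the wild type. The domains differed in strength, with a −log10 q of 67.5 at CYP71B2, 35.8 over the shared domain and 9.38 at CYP71B7. The gained call of CYP71B7 ended when triple mutant domains needed a −log10 q of at least 10, which left it at 0% in both genotypes.

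These genes also held the strongest REF6-GFP peaks of the subfamily. A summit at 4461879 lay in the body of CYP71B28 and 883 bp outside that of CYP71B2, with a fold of 24.5 that ranked 5 of 5393 in the list with DSG. Without DSG the corresponding summit at 4461886 had a fold of 29.8 and ranked 13 of 4526. CYP71B2 had a further summit in its own body at 4459209, with a fold of 19.9 (rank 88) with DSG and 14.9 (rank 373) without DSG. A summit at 4467300 in CYP71B7 had a fold of 22.7 (rank 30) with DSG and 25.9 (rank 41) without DSG. CYP71B29 stood apart from its neighbours: its summit at 4464095, which also lay 626 bp from CYP71B28, had a fold of 3.27 with DSG and 3.06 without DSG, below the list medians of 4.37 and 4.22. The fully covered gene of the cluster was thus the one with the weakest REF6-GFP peak. REF6-ZnF-GFP in the triple mutant had summits in CYP71B2, CYP71B28 and CYP71B7, with folds of 3.32, 2.96 and 2.71, and none in CYP71B29. The coding genes on either side, PBE1 for a proteasome subunit and GLE1 for an mRNA export factor, were covered over 0% in both genotypes. A REF6-GFP summit lay within 1 kb of PBE1, outside its body, with a fold of 4.40 with DSG and 4.17 without DSG. GLE1 had no REF6-GFP summit.

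**Figure D2:**
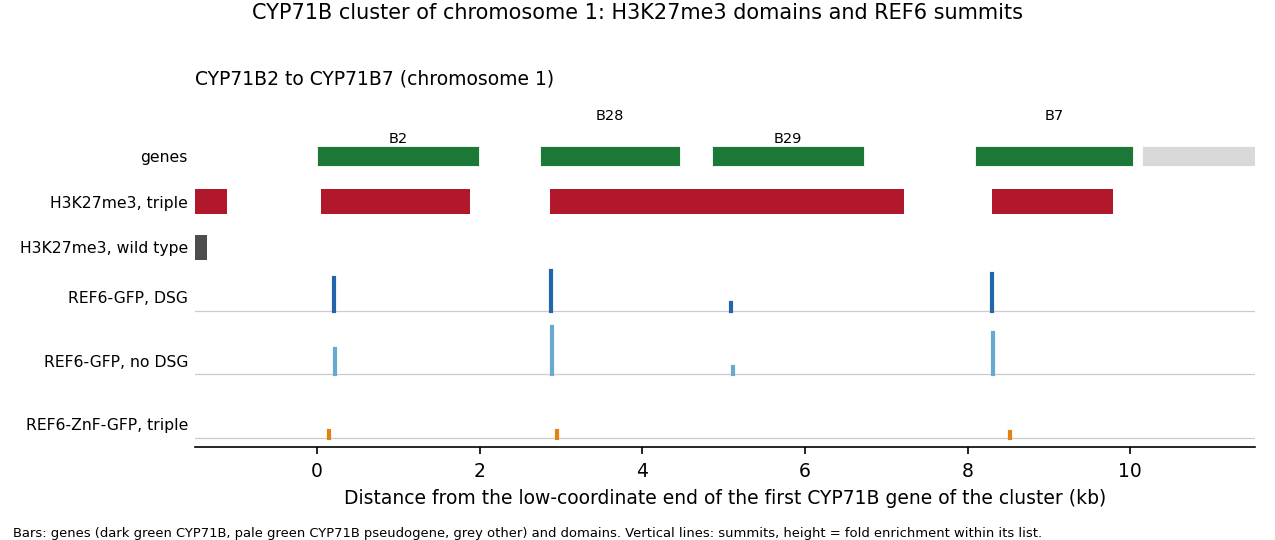
Map of the chromosome 1 CYP71B cluster, with distance from the low-coordinate end of CYP71B2 in kb on the x axis, gene bodies on top, H3K27me3 domains of the triple mutant and the wild type as bars, and summits of 3 REF6 lists as vertical lines whose height is the fold within the list. Triple mutant domains cover 76.4% of the cluster and wild-type domains 0%, and the REF6-GFP lines at CYP71B2, CYP71B28 and CYP71B7 are tall while that at CYP71B29 (3.27 with DSG) is short.

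The largest cluster, from CYP71B16 to CYP71B24 on chromosome 3, mixed marked and unmarked genes in the wild type and was marked at all 9 genes in the triple mutant. Domains covered 78.7% of its 34.4 kb in the triple mutant and 38.8% in the wild type. Coverage per gene ran from 90.4 to 100% in the triple mutant and from 0 to 100% in the wild type. In order along the chromosome, CYP71B16 had 100% in the triple mutant and 34.0% in the wild type. CYP71B17 had 100% in the triple mutant and 0% in the wild type. A single triple mutant domain of 12734 bp (9559622 to 9572355, fold 4.46) covered both genes and began upstream of the cluster, where a wild-type domain (9559613 to 9566170) started at nearly the same place and ended inside CYP71B16. CYP71B17 was gained although its nearest REF6-GFP summit with DSG was 2.11 kb away, in the pseudogene CYP71B18.

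CYP71B19 was covered over 99.5% in the triple mutant and 19.7% in the wild type, where its domain had a −log10 q of only 1.96. Its REF6-GFP summit at 9575114 was weak, with a fold of 3.95 with DSG and 2.90 without DSG. CYP71B20 was gained, with 90.4% in the triple mutant and 0% in the wild type, and its summit at 9580006 had a fold of 15.04 (rank 356) with DSG and 12.6 without DSG. The next 2 genes, CYP71B21 and CYP71B22, were covered over 100% in both genotypes, under a wild-type domain of 10544 bp (9582120 to 9592663), and neither had a REF6-GFP summit. CYP71B23 had 98.3% in the triple mutant and 20.5% in the wild type, with a summit at 9595177 and a fold of 7.27 with DSG and 5.46 without DSG.

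CYP71B3 and CYP71B24, at the far end of this cluster, were both gained. CYP71B3 had 90.9% in the triple mutant and 0% in the wild type, and CYP71B24 had 100% in the triple mutant and 0% in the wild type, under a shared triple mutant domain at 9596111 to 9600430. A single summit at 9597837 served both genes, inside CYP71B3 and 104 bp outside CYP71B24, with a fold of 19.0 (rank 120) with DSG and 18.9 (rank 207) without DSG. The 5 members with the highest REF6-GFP fold with DSG, counting a shared summit for each gene, were thus CYP71B2, CYP71B28, CYP71B7, CYP71B3 and CYP71B24, and all 5 were gained. Of all coding genes with such a summit at any fold 17.3% were gained, and the share at high folds was not counted. The call of CYP71B7 ended when triple mutant domains needed a −log10 q of at least 10.

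In the cluster from CYP71B25 to CYP71B37, also on chromosome 3, domains covered 66.3% of 21.1 kb in the triple mutant and 38.4% in the wild type. CYP71B25 was covered over 100% in both genotypes. CYP71B4 had 100% in the triple mutant and 85.4% in the wild type, and CYP71B26 had 86.0% in the triple mutant and 76.1% in the wild type. In the triple mutant these 3 genes lay under a single domain (9627526 to 9634511). In the wild type there were 2 domains, 9627426 to 9631851 and 9632760 to 9634444, with 908 bp between them. The REF6-GFP summit at 9631932, in CYP71B4 and 676 bp from CYP71B26, lay in that interval, with a fold of 6.28 with DSG and 5.84 without DSG.

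Farther along, CYP71B34 and CYP71B35 were gained under weak domains. CYP71B34 had 61.5% in the triple mutant, from a domain with a −log10 q of 4.38, and 0% in the wild type. CYP71B35 had 77.3% in the triple mutant, with a −log10 q of 3.22, and 0% in the wild type. Neither had a REF6-GFP summit, the nearest being 2.597 kb from CYP71B34 and 4.58 kb from CYP71B35. When only triple mutant domains reaching a −log10 q of 10 were kept, both were at 0% in both genotypes and no longer gained. Both had REF6-ZnF-GFP summits in the triple mutant, the highest with a fold of 3.17. CYP71B36 was covered over 99.8% in the triple mutant and 90.2% in the wild type, and CYP71B37 over 0% in both genotypes. CYP71B37 nevertheless had a REF6-ZnF-GFP summit with a fold of 3.25 in the triple mutant. The interval of 27.6 kb between this cluster and the one before it held 4 other coding genes, of which AT3G26240 was gained, with 69.9% in the triple mutant and 0% in the wild type.

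The cluster of CYP71B5, CYP71B30P, CYP71B31 and CYP71B32 on chromosome 3 was largely marked in both genotypes, over 79.0% of 9.58 kb in the triple mutant and 70.2% in the wild type. CYP71B5 had 100% in the triple mutant and 98.6% in the wild type. CYP71B30P had 100% in the triple mutant and 54.8% in the wild type. For CYP71B31, the linalool-oxidising enzyme gene, the values were 97.1% in the triple mutant and 98.5% in the wild type. CYP71B32 was lower in the triple mutant, with 37.3% there and 49.6% in the wild type. As at CYP71B4, a triple mutant domain (19755656 to 19762302) ran through an interval of 1223 bp that separated 2 wild-type domains, 19755359 to 19757587 and 19758811 to 19762329. A REF6-GFP summit at 19758207 lay in this interval, in CYP71B30P and 594 bp from CYP71B5, with a fold of 4.22 with DSG and 2.58 without DSG.

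**Figure D3:**
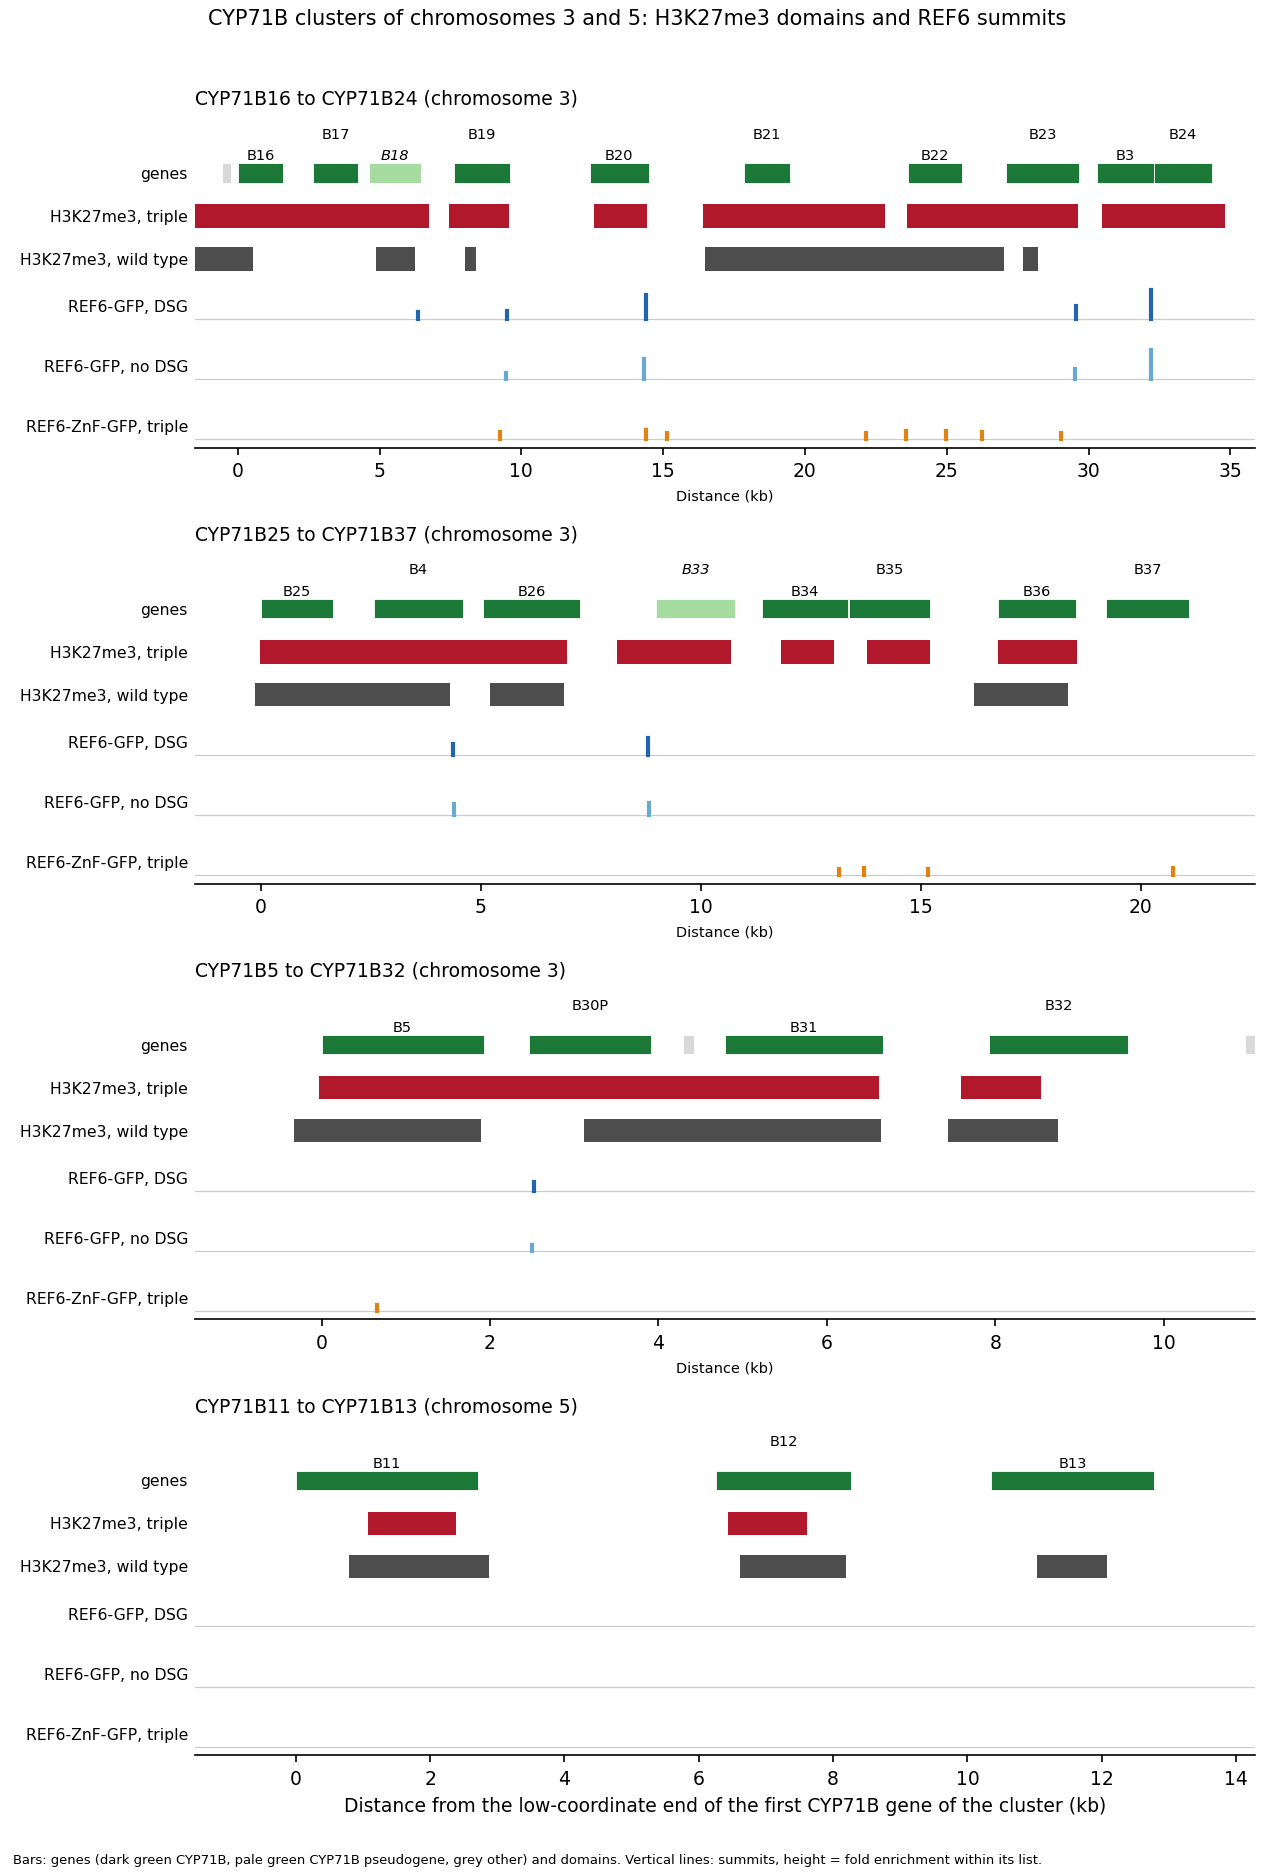
Maps of the CYP71B clusters on chromosomes 3 and 5, drawn as for chromosome 1, with CYP71B pseudogenes in pale green and distance from the low-coordinate end of the first member in kb on each x axis. Triple mutant domains bridge wild-type intervals that hold a REF6-GFP line at CYP71B4 (fold 6.28 with DSG) and CYP71B30P (4.22), whereas the chromosome 5 cluster has no REF6 line and less coverage in the triple mutant (19.5% of the span) than in the wild type (36.8%). Intervals in CYP71B16 and CYP71B17 and in CYP71B23 are bridged without a REF6-GFP line. Other intervals between wild-type domains with such a line are covered over only 38.8 to 59.2% in the triple mutant.

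On chromosome 5 no member had higher coverage in the triple mutant as the lists were deposited. Of 6 members there, 0 had a REF6-GFP summit, 0 had higher coverage in the triple mutant and 5 had lower coverage, where the shares over all coding genes were 25.1%, 20.1% and 10.7%. With a −log10 q of 10 asked of wild-type domains alone, 2 were higher, CYP71B14 by 11.7 points and CYP71B8 by 95.6 points, and 2 were lower, and with it asked of both genotypes 0 were higher and 2 were lower. In the tandem cluster, CYP71B11 had 48.2% in the triple mutant and 70.6% in the wild type. CYP71B12 had 59.3% in the triple mutant and 78.6% in the wild type, and CYP71B13 had 0% in the triple mutant and 42.8% in the wild type. Domains covered 19.5% of the 12.8 kb span in the triple mutant and 36.8% in the wild type. All domains at these genes were weak or moderate within their lists, with a −log10 q of 7.36 at most in the triple mutant and 14.2 at most in the wild type. The nearest REF6-GFP summits with DSG were 30.4 to 36.6 kb away.

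Beyond the clusters, 6 genes stood alone, and none had a REF6-GFP summit within 1 kb. CYP71B6, on chromosome 2, was the only one of these with higher coverage in the triple mutant, 100% there and 40.8% in the wild type. It had REF6-ZnF-GFP summits in the triple mutant at 10281030 and 10282597, with folds of 4.14 and 3.72, while the nearest REF6-GFP summit with DSG was 14.8 kb away. The wild-type domains at CYP71B6 were weak, with a −log10 q of 2.09 and 2.80. When wild-type domains needed a −log10 q of at least 10, the gene was at 0% there and counted as gained. CYP71B9, also on chromosome 2, had 0% in the triple mutant and 45.5% in the wild type, and CYP71B38 on chromosome 3 had 0% in the triple mutant and 23.9% in the wild type. Their wild-type domains were among the weakest, with a −log10 q of 1.59 and 0.988, and keeping only domains that reached a −log10 q of 2 left both genes at 0% in both genotypes. On chromosome 5, CYP71B14 had 11.7% in the triple mutant and 29.6% in the wild type, CYP71B8 had 95.6% in the triple mutant and 96.0% in the wild type, and CYP71B10 had 0% in both. The coding gene after CYP71B14, ESE3, was gained, with 76.7% in the triple mutant and 0% in the wild type and a REF6-GFP summit of fold 7.09 with DSG.

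Set side by side, all 13 members with a REF6-GFP summit had higher coverage in the triple mutant, and of the 20 members without one 6 were higher, 9 were lower and 5 were equal. Domain strength moved the tally of these 20. It was 3 higher, 5 lower and 12 equal when domains of both genotypes had to reach a −log10 q of 10, 3 higher and 10 lower with that limit for the triple mutant alone, and 8 higher and 4 lower with it for the wild type alone. Of the 13 with a summit, 12 or 13 were higher and 0 were lower under each of these limits, the exception being CYP71B7 at 0% in both genotypes. The corresponding shares with higher coverage over all coding genes were 41.6% of those with a summit and 12.9% of those without. The median difference, triple mutant minus wild type, was 79.9 percentage points over the 13 members with a summit and 0 over the 20 without. The 7 members whose highest fold was at least 7.27 differed by 76.4 to 100 points. This cut is the value of CYP71B23 and was not fixed beforehand, and members that share a summit are each counted. The 6 with folds of 6.28 or less spread more widely, from 1.35 points at CYP71B5, 9.89 at CYP71B26, 14.6 at CYP71B4 and 45.2 at CYP71B30P to 79.9 at CYP71B19 and 100 at CYP71B29. CYP71B5 and CYP71B26 were already covered over 98.6% and 76.1% in the wild type. Among the members without a summit, CYP71B21, CYP71B22 and CYP71B25 were at 100% in the wild type and could not rise. CYP71B31, CYP71B8 and CYP71B36, at 98.5%, 96.0% and 90.2% there, had little room to. No member with a summit was at 100% in the wild type, and the part of this in the contrast was not tested. The 9 genes with lower coverage in the triple mutant were CYP71B9, CYP71B38, CYP71B31, CYP71B32, CYP71B11, CYP71B12, CYP71B13, CYP71B14 and CYP71B8, with differences of −0.408 to −45.5 points.

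**Figure D4:**
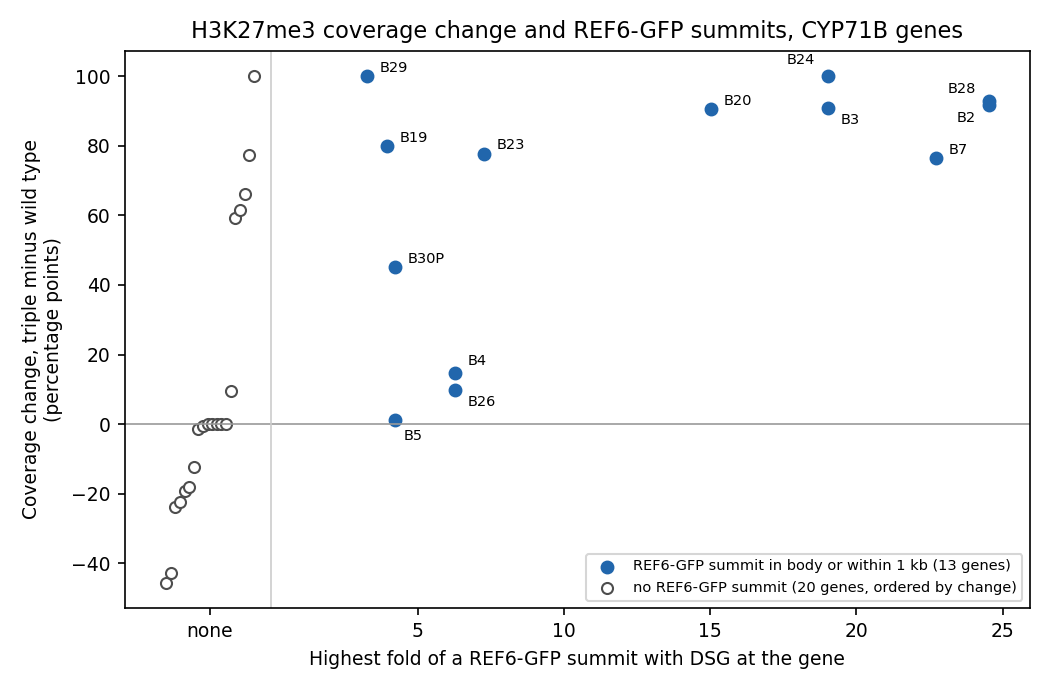
H3K27me3 coverage in the triple mutant minus the wild type (y axis, percentage points) against the highest fold of a REF6-GFP summit with DSG at each CYP71B gene (x axis), with the 20 genes without a summit on the left, ordered by their difference. All 13 genes with a summit lie above 0, between 1.35 points for CYP71B5 and 100 points, and the genes without one spread from −45.5 to 100 points. Of the latter, CYP71B21, CYP71B22 and CYP71B25 were at 100% in the wild type and could not rise.

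The REF6-GFP summits at CYP71B genes lay outside wild-type H3K27me3. With DSG, 9 of the 10 summits were in regions covered in the triple mutant alone, and the last, in CYP71B7, lay 6 bp outside a triple mutant domain. Without DSG, all 10 were in such regions. Over the whole lists, 36.3% of the summits with DSG and 39.3% of those without DSG were in regions covered in the triple mutant alone. The share of all summits outside wild-type domains was not counted. By gene, 12.6% of all coding genes with a summit with DSG were marked in the wild type (868 of 6886), against 4 of the 13 members. A place outside wild-type domains is therefore not shown to be particular to the members. Many of the summits at members stood near the border of the new mark. In each list 6 of the 10 summits, those in CYP71B2, CYP71B28, CYP71B7, CYP71B19, CYP71B20 and CYP71B23, lay within 200 bp of the edge of a triple mutant domain (at CYP71B7 with DSG, on its outer side), a distance chosen after the values were seen. The same distance held 27.5% of all summits with DSG in regions covered in the triple mutant alone, and 25.5% of those without DSG. The CYP71B7 summit with DSG, counted among the 6, lay outside such regions.

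Within the genes, the summits sat close to a gene end. All 10 summits with DSG in a member's body were 50 to 236 bp from the nearer end of the gene, with a median of 124 bp. Over all coding genes the median was 330 bp, and 38.4% of body summits lay within 250 bp of an end. This limit was not fixed beforehand and lies just above the highest member value with DSG. Without DSG, 9 of 10 were within 250 bp, against 36.5%, and the range was 27 to 262 bp. On chromosome 1 the summits lay at the low-coordinate end of each gene, 8.14 to 12.6% of the way along the body. On chromosome 3 they lay 89.4 to 95.8% of the way along, apart from CYP71B30P at 3.46%. Whether these ends are the start or the end of transcription is not stated here, because strand was not used. The summits of the 2 lists were 7 to 58 bp apart, with a median of 19.5 bp.

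Since the summits at members lay outside wild-type domains, those within a cluster fell in intervals between or beside them. Across the 5 clusters there were 16 intervals without wild-type domains, and 10 of them lay between 2 wild-type domains. Of these 10, 4 were covered completely in the triple mutant, in CYP71B16 and CYP71B17, in CYP71B23, at CYP71B4 and CYP71B26, and at CYP71B5 and CYP71B30P. With DSG, 5 of the 10 held a REF6-GFP summit, here counting summits at pseudogenes too, among them the last pair of the 4 intervals just named. The other 3 with a summit were covered over 38.8 to 59.2% in the triple mutant, and 2 of the 4 completely covered ones held no summit. Of these 3, the interval at 9571866 to 9573655 held only the summit of the pseudogene CYP71B18, with a fold of 3.2 with DSG. The interval at 9634445 to 9643783 held only that of the pseudogene CYP71B33, with a fold of 10.3. Neither held a summit at a member. The same counts over all wild-type intervals of the genome were not made. The domains at members also differed in strength. The 21 triple mutant domains had a median −log10 q of 24.8, against 21.1 over their list, and the 20 wild-type domains had 7.55, against 17.6 over theirs.

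REF6-ZnF-GFP had summits at members with and without a REF6-GFP summit. In the triple mutant, 12 members had a summit in the body or within 1 kb, against 35.1% of all coding genes. In ref6, 0 members had a summit, against 1.08%. The 17 summits of the triple mutant had folds of 2.71 to 5.16, with a median of 3.25 beside 3.10 for the list. The highest was at 9580015 in CYP71B20, 9 bp from the REF6-GFP summit there. Only 5 of the 17 lay within 250 bp of a REF6-GFP summit with DSG, at CYP71B2, CYP71B28, CYP71B7, CYP71B19 and CYP71B20. CYP71B22, which was fully covered in both genotypes and had no REF6-GFP summit, had 3 of them. This list is sparse on chromosomes 4 and 5, with 9.64 and 4.58 peaks per 100 coding genes against 47.9 to 52.3 on chromosomes 1 to 3. The part of this in the absence of summits at chromosome 5 members was not tested. The share of 35.1% includes the genes of these 2 chromosomes, where only 6 members lie, so it is not a like background for the members. The share over chromosomes 1 to 3 alone was not counted. Peak names of this list do not hold the word DSG, although the sample titles do.

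The 3 CYP71B pseudogenes, of which CYP71B18 and CYP71B33 lie inside a cluster, also had REF6-GFP summits. CYP71B33, between CYP71B26 and CYP71B34, was gained, with 94.8% in the triple mutant and 0% in the wild type, and its summit outside the body had a fold of 10.3 with DSG and 6.92 without DSG. CYP71B27, beside CYP71B2 on chromosome 1, had 75.1% in the triple mutant and 41.4% in the wild type, with a fold of 4.40 with DSG and 4.17 without DSG. CYP71B18, between CYP71B17 and CYP71B19, had 100% in the triple mutant and 72.8% in the wild type, with a fold of 3.199 with DSG and no summit without DSG.

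Other P450 genes were counted in the same way, with no test of the difference. Of the 33 CYP71B genes 30.3% were gained and 33.3% were marked in both, whereas of 196 other P450 genes 9.69% (19 genes) were gained and 51.0% were marked in both. REF6-GFP with DSG had summits at 39.4% of CYP71B genes and at 30.1% of the other P450 genes. The sister subfamily CYP71A, with 16 genes, had 0 gained genes, 14 genes marked in both and 1 gene with such a summit, CYP71A18. None of the CYP71A genes was covered below 10% in the wild type, so by the rule none could be gained. Of the other P450 genes 1 was lost, CYP714A2, covered over 0% in the triple mutant and 56.7% in the wild type. Members of 1 cluster share domains and summits, so the 33 genes are not independent of each other.

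**Figure D5:**
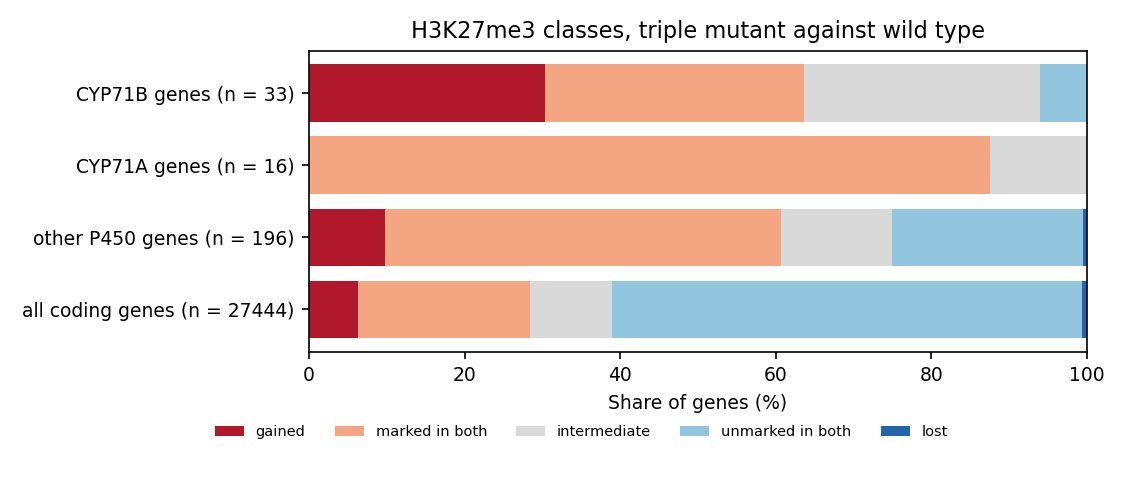
Share of genes (x axis, percent) that were gained, marked in both genotypes, intermediate, unmarked in both or lost, triple mutant against wild type, for CYP71B, CYP71A, other P450 and all coding genes. The gained segment covers 30.3% of CYP71B genes, 0% of CYP71A genes (where no gene was low enough in the wild type to be gained), 9.69% of other P450 genes and 6.29% of all coding genes.

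Most genes of camalexin and indole metabolism, in which CYP71B15 and CYP71B6 act, were marked in both genotypes. Of 12 genes of camalexin and indole metabolism, 8 were marked in both genotypes, 2 were gained and 6 were bound by REF6-GFP with DSG, where the shares over all coding genes were 22.1%, 6.29% and 25.1%. Without DSG, 4 of the 12 were bound, against 21.4%. PAD3 (CYP71B15), the last enzyme of camalexin synthesis, was covered over 80.5% in the triple mutant and 55.6% in the wild type, with a summit of fold 4.07 with DSG. The gained genes were GGP1, for a gamma-glutamyl peptidase, with 94.2% in the triple mutant and 0% in the wild type, and GSTF6, for a glutathione transferase, with 100% in the triple mutant and 0% in the wild type. Their summits had folds of 3.04 and 12.6 with DSG. WRKY33, for a transcription factor that activates PAD3, had a summit of fold 14.0 with DSG but was covered over only 8.61% in the triple mutant and 0% in the wild type. The remaining genes with a summit were CYP79B2, for an enzyme that turns tryptophan into indole-3-acetaldoxime, with a fold of 2.52, and CYP71A18 with 3.65. Both summits lay outside the gene body, and neither gene had a summit without DSG. Of 6 genes of floral linalool metabolism, 1 was gained, against 6.29% of all coding genes. This was CYP76C3, with 93.7% in the triple mutant, 0% in the wild type and a summit of fold 3.07. CYP76C1 had 99.1% in the triple mutant and 20.5% in the wild type, and CYP76C2 had 98.0% in the triple mutant and 68.3% in the wild type, and REF6-GFP with DSG had a summit at both. Without DSG, CYP76C1 had a summit and CYP76C2 had none. The linalool synthase genes TPS10 and TPS14 had no REF6-GFP summit and differed by less than 2 points between genotypes. ATR1 and ATR2, the P450 reductase genes, were covered over 0% in both genotypes and had no summit in any REF6 list.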

How the data were processed

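Per the submitters' processing notes, the authors used Bowtie 1.1.2, Picard 2.60, MACS2 2.1.0 and deepTools with the TAIR10 build; order, settings and controls are not given in the sources at hand. Without a header, the columns of the deposited lists were taken in MACS2's order. They are a score (not used), a fold enrichment (a ratio to a control chosen by the authors), a −log10 p (not used), a −log10 q and, for REF6, the offset of the summit from the peak start. The word pooled stands in all deposited peak names, and each list is therefore 1 call on the samples of a group. Samples were grouped by title. The labels do not say that they came from separate plants.

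Genes were named and placed by a RefSeq table of the assembly TAIR10.1, none of whose coordinates are printed. As a check of the builds, 83.6 to 87.0% of REF6-GFP summits with DSG fell in coding genes on each chromosome, against 60.6 to 66.5% when shifted by 20 kb. Coverage is the share of the gene body under merged domains; a summit was counted in the body or within 1 kb on either side. Every member is named, with full values for clusters of 3 or more genes, for gained genes and for the 5 highest REF6-GFP folds. The members, gene lists and thresholds were chosen with earlier results of these data known. Calculations used Python 3.11.15, pandas 2.3.3, numpy 2.4.6 and matplotlib 3.10.9 and were tested on simulated data. The planned motif search and protein comparison were not run, since sequences were not used here. Alternatives were a −log10 q of at least 2 or 10 for domains, equal numbers of domains, marked limits of 30% and 80%, other summit windows and stricter peaks, and, added after seeing the data, PAD3 as a member and CYP71B30P left out.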

Additional observations from a re-analysis of the deposited data

How the results depend on the processing

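The number of gained CYP71B genes was 10 and ran from 7 to 15 over the domain and coverage alternatives. CYP71B2, CYP71B28, CYP71B29, CYP71B17, CYP71B20, CYP71B3 and CYP71B24 kept the call in all 7 of these. CYP71B7, CYP71B34 and CYP71B35 did not, with a coverage of 0% in the triple mutant once its domains needed a −log10 q of at least 10. Lost genes numbered 0, but 4 with that limit in the triple mutant list alone, 3 with it in both lists and 2 with 30% coverage counted as marked. Gained and bound genes ran from 6 to 10. REF6-ZnF-GFP summits in the triple mutant lay at 12 members, and at 6 with a −log10 q of at least 10. The difference at CYP71B36 turned to −90.2 points with that limit in the triple mutant list alone or in both lists. With it in the wild-type list alone the difference became 11.7 points at CYP71B14 and 95.6 points at CYP71B8. Of the other differences of single genes under an alternative, 127 stayed the same and 34 moved. None of the 34 reversed its sign, but several fell to 0, as at CYP71B7, CYP71B34, CYP71B35, CYP71B9, CYP71B38 and CYP71B13. These changes follow from the construction of the alternatives, which remove weak domains or peaks or shift the limit.

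No paired analysis was possible because the lists pool the samples of a group and carry no replicate numbers, and leaving out a replicate was not possible for the same reason. Domain edges follow the peak caller, so a weak domain just above the calling limit counts as full coverage and one just below as 0%. Signal heights between genotypes were not compared.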

Other observations

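The 19 other P450 genes that gained H3K27me3 in the triple mutant included groups beyond the indole and linalool pathways. CYP707A1 and CYP707A3, which encode abscisic acid hydroxylases, were covered over 54.6% and 56.9% in the triple mutant and 0% in the wild type, with REF6-GFP summits of fold 18.1 and 23.0 with DSG. A run of CYP81D genes on chromosome 4 resembled the CYP71B clusters in that neighbours shared a summit. CYP81D3 and CYP81D2 were both covered over 100% in the triple mutant and 0% in the wild type, with a shared summit of fold 6.25, and CYP81D8 had 91.4% in the triple mutant and 0% in the wild type, with a fold of 10.7. CYP81D4 had 56.4% in the triple mutant and 0% in the wild type without a REF6-GFP summit. CYP83B1, an enzyme of indole glucosinolate synthesis, had 81.6% in the triple mutant and 0% in the wild type, with a fold of 6.98. CYP78A6 had 53.9% in the triple mutant and 0% in the wild type, with a fold of 12.6. These genes were named after their values were seen.

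Of all coding genes with a REF6-GFP summit with DSG, 53.5% (3683 of 6886) were unmarked in both genotypes. A gene of this kind lies next to a CYP71B cluster. AT3G53310, the coding gene after CYP71B32, had a summit in its body with a fold of 16.6 with DSG and 17.9 without DSG, and was covered over 0% in both genotypes.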
